A study of Mus musculus with 8 samples.

Results

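The loci of 6 classical cadherin genes, *Cdh1*, *Cdh3*, *Cdh2*, *Cdh4*, *Cdh6* and *Cdh11*, were examined in FAIRE-seq peak lists of EpH4 and EpRas mouse mammary epithelial cells. Members were the peaks of each list that overlapped the annotated span of 1 of these genes or the 20 kb on either side of it. FAIRE-seq (formaldehyde-assisted isolation of regulatory elements) sequences the DNA left free of crosslinked protein, so that a peak marks chromatin accessible to DNA binding factors. When the peaks of all lists that overlapped each other were merged, 19 of 37230 regions lay at the 6 loci, and they held 49 of 129466 peaks.

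EpH4 cells are a mammary gland epithelial line without active H-Ras, and EpRas cells are their derivative transformed with H-Ras. Both lines were either left untreated or cultured with transforming growth factor-β3 (TGF-β) at 1 ng/ml for 8 days, with 2 replicate libraries in each of the 4 groups. EpH4 cells were grown in 10% fetal bovine serum and EpRas cells in 4%, so the transformation and the serum level cannot be told apart in a comparison of the lines. Tests compared the 4 EpRas with the 4 EpH4 libraries, or the 4 TGF-β with the 4 untreated ones, by a two-sided exact permutation test over all 70 assignments of the libraries, whose smallest possible p is 0.0286. Within 1 line the comparison of 2 with 2 libraries could not go below p = 0.333 in an exact test, and such values are given without one.

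The lists held between 10821 peaks (TGF-β-treated EpH4 replicate 2) and 27337 peaks (TGF-β-treated EpRas replicate 1). Read depth was unknown, and a site that was not called could not be distinguished from a closed one. Each peak carried a score of unstated unit, which is given here as a percentile among all peaks of the same list, with 100 at the top. The 8 lists held 5, 6, 8 and 6 member peaks in EpH4 cells and 7, 4, 9 and 4 in EpRas cells, in the order untreated replicates 1 and 2, then TGF-β replicates 1 and 2. All lists of values below follow that order. As a check of the epithelial label, promoters of keratin genes were called: *Krt14* in all 8 libraries, *Krt8* in 3 EpH4 and 2 EpRas libraries, and *Krt18* in 2 EpH4 and 1 EpRas library. Those of *Krt5* and of *Epcam*, an epithelial adhesion molecule, were called in 0 of 8.

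Classical cadherins are transmembrane proteins that bind cadherins of neighbouring cells through their extracellular repeats in a calcium-dependent way. Their cytoplasmic tails hold p120-catenin and β-catenin, and through α-catenin the junction is linked to the actin cytoskeleton. E-cadherin holds epithelial sheets together, and its replacement by N-cadherin is a common sign of epithelial-mesenchymal transition (EMT), which TGF-β can induce in mammary epithelial cells.

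Sequences are shown for the 3 regions outside the gene promoters that carried the clearest patterns of calls. The first was called in every EpH4 library and the second in every EpRas library. The third was called in all 8 libraries. They lie on mouse chromosome 8 (GRCm38, plus strand), at chr8:106616035-106616334 and chr8:106619649-106619948 in intron 2 of *Cdh1* and at chr8:106529876-106530175 in intron 2 of *Cdh3*, and none of the 3 windows of 300 bp overlapped an annotated exon. Capitals mark AP1 sites (TGAGTCA or TGACTCA) and, in the first region, E-boxes (CAGGTG or CACCTG, the same site read on the other strand). AP1 is the dimer of Fos and Jun family proteins, and the E-box CAGGTG is the sequence bound by Snail and Zeb repressors.
Cdh1 +12.8 kb: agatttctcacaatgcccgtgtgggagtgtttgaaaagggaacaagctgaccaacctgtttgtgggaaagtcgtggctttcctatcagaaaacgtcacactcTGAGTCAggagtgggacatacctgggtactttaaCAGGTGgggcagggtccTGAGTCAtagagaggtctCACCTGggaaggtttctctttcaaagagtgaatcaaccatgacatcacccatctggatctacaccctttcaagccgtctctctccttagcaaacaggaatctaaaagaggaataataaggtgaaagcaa
Cdh1 +16.4 kb: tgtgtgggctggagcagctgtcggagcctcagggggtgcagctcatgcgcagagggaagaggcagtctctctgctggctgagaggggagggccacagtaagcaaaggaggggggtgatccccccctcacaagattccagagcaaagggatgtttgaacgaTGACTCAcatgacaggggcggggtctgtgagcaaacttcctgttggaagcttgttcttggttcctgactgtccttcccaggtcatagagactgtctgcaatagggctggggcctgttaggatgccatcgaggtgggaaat
Cdh3 +19.1 kb: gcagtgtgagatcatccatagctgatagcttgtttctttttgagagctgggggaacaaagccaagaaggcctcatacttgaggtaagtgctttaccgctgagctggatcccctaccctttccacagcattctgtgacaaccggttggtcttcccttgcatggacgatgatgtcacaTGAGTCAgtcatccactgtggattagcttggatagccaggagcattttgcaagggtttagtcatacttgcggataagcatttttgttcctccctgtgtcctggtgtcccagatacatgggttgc

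*Cdh1* encodes E-cadherin, the cadherin of epithelial adherens junctions (chr8:106603351-106670246, plus strand). More peaks were called at its locus in EpH4 than in EpRas cells, but the ranges of the lines touched. The locus held 3, 3, 5 and 2 peaks in EpH4 cells and 2, 1, 1 and 1 in EpRas cells. The 2 peaks of the lowest EpH4 library, TGF-β replicate 2, equalled those of the highest EpRas library, untreated replicate 1. The mean was 3.25 ± 1.26 (SD, n = 4) peaks in EpH4 and 1.25 ± 0.500 (SD, n = 4) in EpRas cells, a difference of -2 peaks (exact permutation test, p = 0.0571, and adjusted p = 0.784 by Benjamini-Hochberg over 15743 genes). The EpRas minus EpH4 difference was -1.5 peaks without and -2.5 peaks with TGF-β. TGF-β-treated and untreated libraries had the same mean (difference 0, exact permutation test, p = 1), with changes of 0.5 peaks in EpH4 and -0.5 peaks in EpRas cells.

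The lists of EpRas cells held 13784 to 27337 peaks and those of EpH4 cells 10821 to 17927. When each list was cut to its 10821 highest-scored peaks, the *Cdh1* locus kept 3, 2, 4 and 2 peaks in EpH4 cells and 0, 1, 1 and 1 in EpRas cells, so that the lines no longer overlapped (difference -2, exact permutation test, p = 0.0286). The same p was reached per 10000 peaks of the list, with a difference of -1.62, but not with peaks at or above the pooled median score of 15.5 (difference -1.25, exact permutation test, p = 0.286). At equal list length 2.01% of the 15743 genes were lower in EpRas cells without overlap. Per 10000 peaks 5.51% were, against 0.553% with the full lists. Within 1 Mb on either side, outside the locus itself, the mean was higher in EpRas cells, with 35.8 ± 10.3 (SD, n = 4) peaks in EpH4 and 50.0 ± 13.9 (SD, n = 4) in EpRas libraries, and the ranges of 28 to 51 and 38 to 70 overlapped. Per 10000 peaks of the list these counts were 22.5 to 29.6 in EpH4 and 25.6 to 27.6 in EpRas libraries, so that the EpRas range lay inside that of EpH4 cells.

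Of the 7 regions at *Cdh1*, 3 divided the lines completely, with a call in every library of one and in 0 libraries of the other, and no other region of the 6 loci did so. One of them was the *Cdh1* promoter (chr8:106603128-106603430), where a region of 303 bp spanned the start site. Its score percentiles were 60.4, 51.8, 54.3 and 40.7 in the 4 EpH4 libraries, with no call in EpRas cells. These are middling scores, and the promoter was called in 2 of 4 EpH4 libraries when only peaks at or above that median score were kept. Among 21938 protein-coding genes, 29 (0.132%) had a promoter called in all 4 EpH4 and 0 EpRas libraries.

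A second EpH4 region (chr8:106616036-106616334) lay 12.8 kb downstream of the start site in intron 2. It was called at percentiles 14.8, 74.0, 74.4 and 79.1 in EpH4 cells and in no EpRas library. Untreated EpH4 replicate 1 gave the low value, and the other 3 libraries were close together. As printed above, its window held 2 AP1 sites and 2 E-boxes, all between positions 106616137 and 106616211. Of all 37228 windows, 6.19% held at least 2 AP1 sites, 2.24% at least 2 E-boxes, and 65 (0.175%) both. This count was chosen after the sequence had been seen.

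Another region of *Cdh1* intron 2, 16.4 kb downstream of the start site (chr8:106619644-106619954), had the opposite pattern. It was called in no EpH4 library and at percentiles 33.7, 58.4, 85.2 and 40.5 in the EpRas libraries. The highest of these came from TGF-β replicate 1, the library with the longest list. The region lay 3.61 kb from the second EpH4 region in the same intron, and it held 1 AP1 site and no E-box. At equal list length it was called in 3 of the 4 EpRas libraries, with untreated replicate 1 missing, while the promoter and the EpH4 region of intron 2 stayed called in all 4 EpH4 libraries. Across the genome 736 regions (1.98%) were called in all 4 EpRas and 0 EpH4 libraries and 280 (0.752%) the other way round. By treatment, 0 of the 19 regions were called in all 4 libraries of 1 side and 0 of the other, against 0.32% of all regions for TGF-β and 0.0188% for untreated cells.

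**Figure D1:**
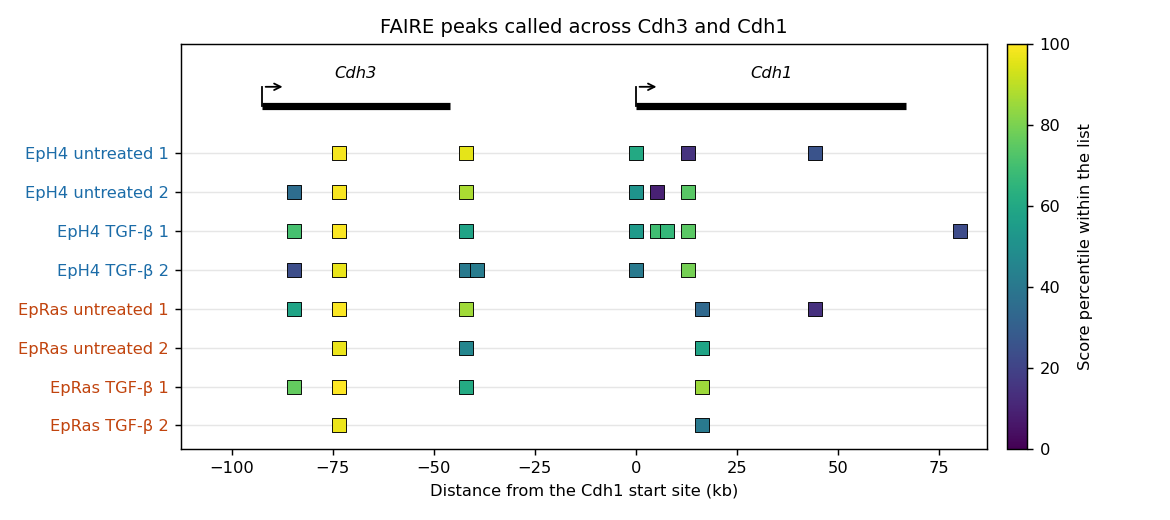
Peaks called at the *Cdh3* and *Cdh1* loci, by distance from the *Cdh1* start site (kb, x axis) in each of the 8 libraries (rows), with colour giving the score percentile within the list and black bars the gene spans with their direction of transcription. At *Cdh1* the promoter at 0 kb and the region at 12.8 kb hold squares in the 4 EpH4 rows, and the region at 16.4 kb holds squares in the 4 EpRas rows, whereas the *Cdh3* region near the middle of the gene is present in all 8.

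The other 4 regions of *Cdh1* were called in 1 or 2 libraries. Regions 5.18 kb and 7.79 kb downstream of the start site, both in intron 2, were called only in EpH4 cells. The first was at percentile 9.20 in untreated replicate 2 and 69.2 in TGF-β replicate 1, and the second at 66.7 in TGF-β replicate 1. A region 44.2 kb downstream was called in untreated replicate 1 of both lines, at percentile 25.6 in EpH4 and 13.9 in EpRas cells. The last, at the promoter of the neighbouring gene *Tango6*, was called at percentile 22.8 in TGF-β-treated EpH4 replicate 1 and belonged to the locus only through the flank.

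*Cdh3* encodes P-cadherin, which is found in the basal layer of the mammary epithelium. It lies upstream of *Cdh1* in the same direction (chr8:106510891-106557297, plus strand), with 46.1 kb between the genes. Its locus held 2, 3, 3 and 4 peaks in EpH4 cells and 3, 2, 3 and 1 in EpRas cells, so that the lines overlapped widely. The mean was 3.00 ± 0.816 (SD, n = 4) in EpH4 and 2.25 ± 0.957 (SD, n = 4) in EpRas cells (difference -0.75, exact permutation test, p = 0.486). TGF-β-treated libraries had 0.25 peaks more than untreated ones (exact permutation test, p = 1). At 3.04 peaks per 100 kb and library, *Cdh3* was the densest of the 6 loci, followed by *Cdh1* at 2.10. The promoter of *Cdh3* was called in 0 of 8 libraries.

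The region of *Cdh3* called in all 8 libraries (chr8:106529777-106530274, 19.1 kb downstream of the start site in intron 2) was the highest-scored of the 19. Its percentiles were 98.7, 99.2, 99.5 and 96.7 in EpH4 cells and 99.3, 97.0, 99.7 and 97.2 in EpRas cells. All 8 values were near the top of their lists, with 96.7 the lowest, and the lines overlapped throughout. The mean was 98.5 ± 1.27 (SD, n = 4) in EpH4 and 98.3 ± 1.37 (SD, n = 4) in EpRas cells, a difference of -0.20 percentile points (exact permutation test, p = 0.971). For TGF-β the difference was -0.32 points (exact permutation test, p = 0.886). Over the 4259 regions called in all 8 libraries, 8.15% had percentiles that did not overlap between the lines and 2.86% between the treatments. The median differences were 5.68 and 3.43 points. At percentiles this near 100 a rise of that size was not possible, so the tests of this *Cdh3* region could not detect one.

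A pair of further *Cdh3* regions, described here after their values were seen, were called in 5 and in 7 of the 8 libraries, with calls in both lines. The one 8.01 kb downstream of the start site, in intron 2, was at percentiles 35.2, 70.4 and 23.6 in EpH4 libraries other than untreated replicate 1, and at 58.5 and 75.9 in replicate 1 of untreated and TGF-β-treated EpRas cells. The one in the downstream flank, 50.4 kb from the start site, was at 95.8, 87.3, 58.1 and 41.0 in EpH4 cells and at 85.7, 46.1 and 60.8 in EpRas cells, without a call in TGF-β-treated EpRas replicate 2. In EpH4 cells both untreated values of this region were above both TGF-β values, whereas in EpRas cells the TGF-β value lay between the untreated ones. The fourth region, also in the downstream flank, was called in TGF-β-treated EpH4 replicate 2 alone, at percentile 41.7.

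*Cdh2* encodes N-cadherin, the cadherin of neural and mesenchymal cells (chr18:16588877-16809246, minus strand). Peaks were called at its locus in every EpRas library and in no EpH4 library. The locus held 0 peaks in each EpH4 library and 2, 1, 2 and 2 in EpRas cells. The mean of 1.75 ± 0.500 (SD, n = 4) in EpRas against 0 in EpH4 cells gave the smallest p that the exact permutation test allows (p = 0.0286), and after Benjamini-Hochberg adjustment over 15743 genes the adjusted p was 0.593, the lowest reached by any gene. *Cdh2* was the only 1 of the 5 members with a peak whose lines did not overlap with EpRas higher, which was the case for 672 genes (4.27%), and 0 members were lower in EpRas without overlap (0.553% of genes). For TGF-β, 0 members had groups that did not overlap, against 0.394% of genes higher and 0.0445% lower with TGF-β. At *Cdh2* the TGF-β-treated libraries had 0.25 peaks more than untreated ones (exact permutation test, p = 1).

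**Figure D2:**
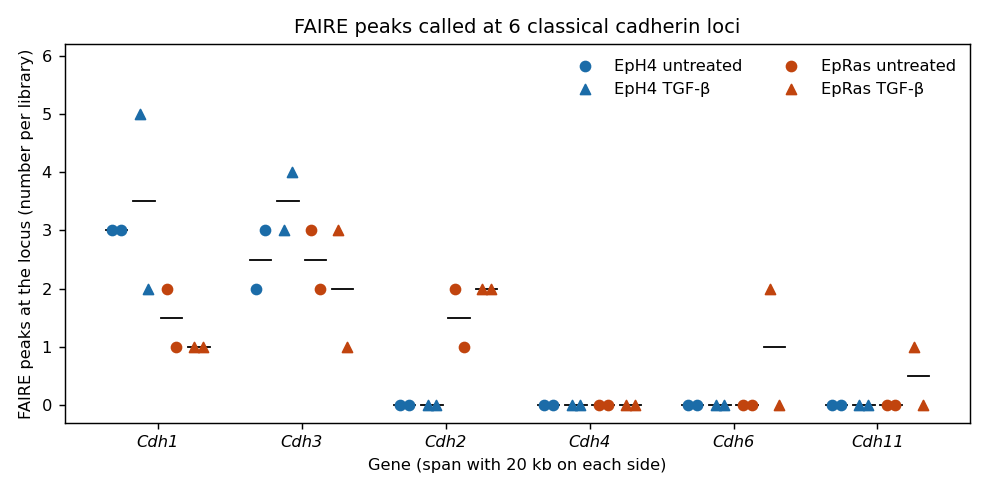
Number of FAIRE peaks called per library (y axis) at the loci of the 6 cadherin genes (x axis, gene span with 20 kb on each side). Each point is 1 library (circles untreated, triangles TGF-β, blue EpH4, orange EpRas) and each bar the mean of 2 libraries. At *Cdh2* the EpH4 points are all at 0 and the EpRas points at 1 or 2, and at *Cdh1* the EpH4 points run from 2 to 5 against 1 to 2 for EpRas.

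The 7 peaks at *Cdh2* had low scores and mostly did not coincide between libraries. They fell into 5 regions, of which 2 were called in 2 libraries each and 3 in 1 library each. The percentiles ran from 0.638 to 45.0 with a median of 33.3, so that all 7 were below the median peak of their lists. In intron 2, a region 74.4 kb downstream of the start site was called in untreated replicate 2 (percentile 0.638) and TGF-β replicate 1 (37.4), and another 64.3 kb downstream in untreated replicate 1 (33.3) and TGF-β replicate 1 (17.8). One more region of intron 2, at 68.2 kb, was at percentile 1.62 in TGF-β replicate 2. A region of intron 1 at 28.4 kb was at percentile 38.2 in TGF-β replicate 2, and the region with the highest percentile, 45.0, lay 13.0 kb upstream of the start site and was called in untreated replicate 1. The promoter itself was called in 0 of 8 libraries.

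At equal list length 2 of the 7 peaks were left, 1 in untreated replicate 1 and 1 in TGF-β replicate 2, and the line difference of 0.5 peaks did not pass the exact permutation test (p = 0.429). Per 10000 peaks of the list the difference was 0.952 (exact permutation test, p = 0.0286). Counts of 0 stay 0 under this scaling, so the lines had to stay apart whatever the list lengths. With it 3.93% of all genes were apart with EpRas higher. At equal list length the counts of all genes moved too. The share of genes apart with EpRas higher went from 4.27% to 1.97%. EpRas-higher genes went from 88.5% to 49.5% of those apart in either direction. Within 1 Mb of the *Cdh2* locus the EpH4 libraries also had 0 peaks, and the EpRas libraries had 2, 2, 2 and 1. Chromosome 18 as a whole took 1.55% to 2.20% of the peaks in EpH4 lists and 2.33% to 2.73% in EpRas lists. The part of the list length and of the chromosome's share in the difference at *Cdh2* was not tested.

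**Figure D3:**
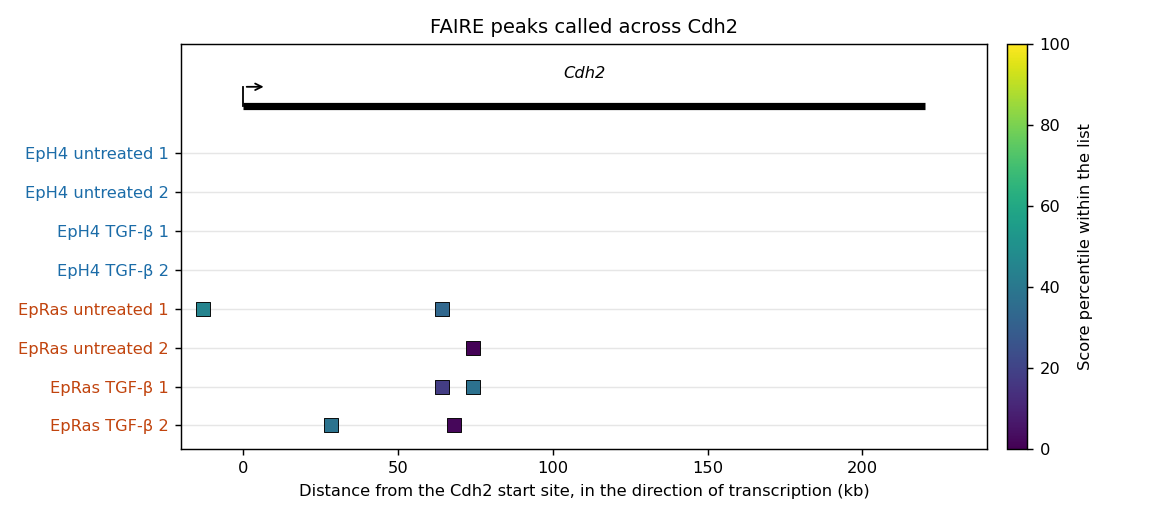
Peaks called across *Cdh2*, by distance from its start site in the direction of transcription (kb, x axis) in each of the 8 libraries (rows), with colour giving the score percentile within the list and the black bar the gene span. The 4 EpH4 rows are empty, and the 7 squares of the EpRas rows lie from 13.0 kb upstream to 74.4 kb downstream, with none at the start site.

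*Cdh4* encodes R-cadherin, a close relative of N-cadherin known from retina and nervous system. Its locus (gene at chr2:179442431-179899373, plus strand, 456.9 kb long) held 0 peaks in all 8 libraries, and it was therefore not tested. The nearest region lay 60.5 kb beyond the downstream flank and was called in all 8 libraries. At the average density of each list over the genome, a locus of this length would hold 1.97 to 4.98 peaks. Of 276 protein-coding genes at least as long as *Cdh4*, 34 (12.3%) likewise had no peak within their span and flanks. Within 1 Mb on either side of the locus lay 15 to 27 peaks in EpH4 and 14 to 21 in EpRas libraries. The sides differed, however. Upstream, the next region called in any library lay 967 kb beyond the flank, so nearly all of that 1 Mb was empty. The surroundings that held peaks were therefore mainly the downstream ones.

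*Cdh6* encodes K-cadherin, known from kidney and neural crest (chr15:13028701-13173675, minus strand), and *Cdh11* encodes OB-cadherin of mesenchymal cells and osteoblasts (chr8:102632095-102785642, minus strand). Both loci held peaks in TGF-β-treated EpRas replicate 1 alone, with 2 at *Cdh6* and 1 at *Cdh11*. Replicate 2 of the same group had 0 at both. The *Cdh6* peaks lay 39.4 kb downstream of the start site in intron 1 and 7.51 kb upstream of it, at percentiles 19.5 and 15.7, and the *Cdh11* peak lay 4.90 kb upstream at percentile 3.94. That library had the longest list, and 0 of these 3 peaks were left at equal list length. Differences between lines and between treatments were 0.5 peaks at *Cdh6* and 0.25 peaks at *Cdh11* (exact permutation test, p = 1 for each).

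Of the 19 regions, 12 were intronic, 3 lay in an upstream and 2 in a downstream flank, 1 was a promoter of a member and 1 that of a neighbouring gene. The *Cdh1* promoter was thus the only one of the 6 member promoters called in any library. Among all protein-coding genes 42.5% had a promoter peak in at least 1 library and 10.6% in all 8. Of the 19 regions, 9 (47.4%) were called in 1 library and 1 (5.26%) in all 8, beside 31.6% and 11.4% of all regions, a description of these lists without a test.

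**Figure D4:**
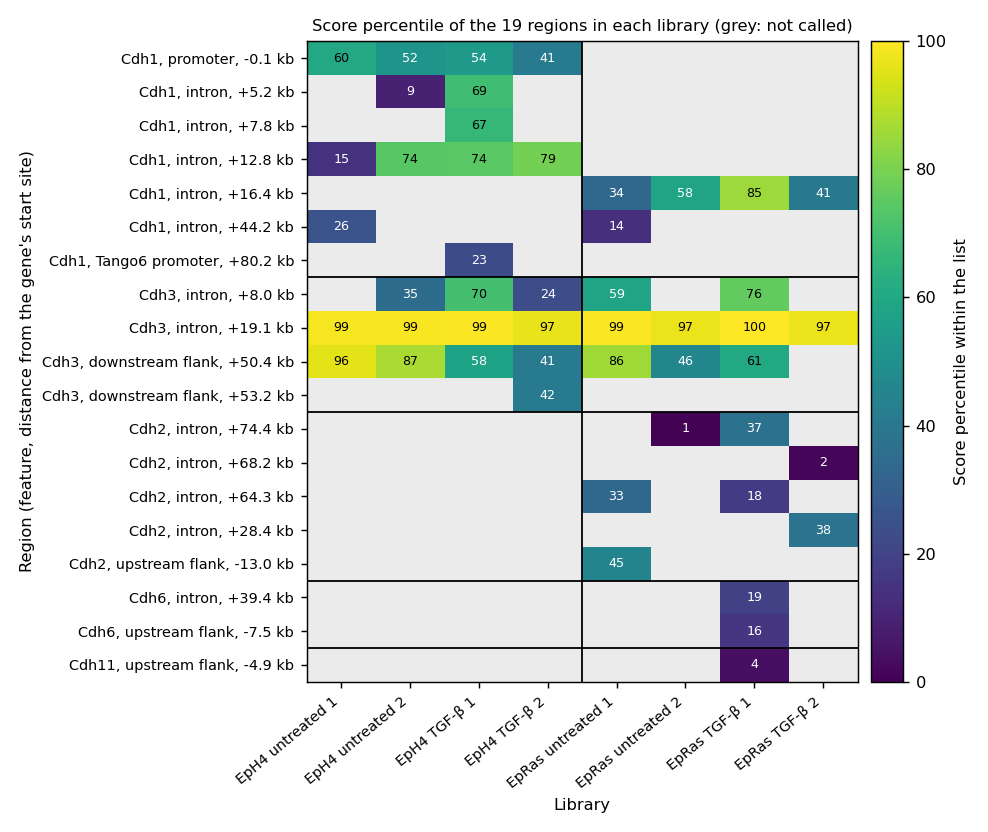
Score percentile within the list (colour and printed value) of the 19 merged regions at the cadherin loci (rows, with their feature and distance from the gene's start site) in the 8 libraries (columns), grey where no peak was called. The *Cdh3* region at 19.1 kb is the only row filled in all 8 columns, and the *Cdh2*, *Cdh6* and *Cdh11* rows are empty in the 4 EpH4 columns.

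Motifs were searched on both strands in 300 bp around the middle of the 18 regions outside the member promoters. An AP1 site was present in 9 of the 18, beside 34.7% of all 37228 windows. Those windows included regions at gene promoters, so the sets are not matched. The E-box CAGGTG was present in 6 (18.4% of all windows), the RUNX motif TGTGGTT in 2 (11.5%), and an ETS motif (CCGGAAG, or the same with A as its first or last letter) in 1 (12.3%). All 4 regions of *Cdh3* held an AP1 site, as did the regions of *Cdh1* intron 2 at 12.8 and 16.4 kb that divided the lines completely. The other *Cdh1* regions outside the promoter held none, including those at 5.18 and 7.79 kb called only in EpH4 cells. At *Cdh2*, called only in EpRas cells, the regions at 74.4, 64.3 and 28.4 kb held a site. Those at 68.2 kb and 13.0 kb upstream did not, nor did any *Cdh6* or *Cdh11* window. A match in the letters is not evidence of binding.

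The cytoplasmic partners and other adhesion molecules of adherens junctions were counted in the same way. Of 15 listed genes, 14 had a peak in some library, and 1 was apart between the lines: *Pkp4*, a member of the p120-catenin family, held 0, 0, 1 and 0 peaks in EpH4 and 2 in each EpRas library (difference 1.75, exact permutation test, p = 0.0286, adjusted p = 0.593). None was lower in EpRas cells or apart by treatment, and the list's median line difference of 0.25 peaks was that of all genes tested. Over all genes 4.27% were apart with EpRas higher and 0.553% with EpRas lower, so 1 of 14 is close to the background. The genes of α-catenin (*Ctnna1*) and β-catenin (*Ctnnb1*) were among those whose lines overlapped. At the gene of p120-catenin (*Ctnnd1*) the ranges only touched, with 1, 1, 2 and 0 peaks in EpH4 and 3, 3, 4 and 2 in EpRas cells (difference 2, exact permutation test, p = 0.0571, adjusted p = 0.784). Of 12 other classical cadherins, 7 had a peak and 0 were apart in either comparison.

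Among 5 non-classical cadherins, all with a peak, 2 were apart with EpRas higher, beside 4.27% of all genes, and 0 in any other direction. *Cdh13*, the T-cadherin that lacks a cytoplasmic tail, held 2, 3, 1 and 3 peaks in EpH4 and 7, 4, 9 and 5 in EpRas cells (difference 4, exact permutation test, p = 0.0286, adjusted p = 0.593). *Cdh26* held 0 in each EpH4 library and 2, 1, 2 and 1 in EpRas cells (difference 1.5, with the same p and adjusted p by the exact permutation test). At equal list length, where 1.97% of all genes were apart with EpRas higher, the direction stayed in *Pkp4*, *Cdh13* and *Cdh26*, and the lines were still apart at *Cdh26* (difference 1, exact permutation test, p = 0.0286) but not at *Cdh13* (1.5, p = 0.0857) or *Pkp4* (0.5, p = 0.429).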

How the data were processed

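FAIRE-seq peak lists of 8 libraries were analysed, 1 list per library. According to the methods, the authors trimmed the reads to 36 bp, used bowtie2 to align them to mm10 and MACS2 (version 2.0.9) for peak calling at a fixed q-value limit, in 2 biological replicates per group. The deposited lists gave the position, a name and a score for each peak. What the score measures was not given in the sources used here, so it was used only for ranking. There were no read counts or signal, and the depth of each library was unknown. How the replicate cultures were kept apart was not stated, so p-values measure the spread between these libraries only.

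Gene spans and start sites came from GENCODE vM21 (basic set) on GRCm38.p6, the build of mm10. Peaks overlapping by at least 1 bp were merged into 37230 regions, and 0 peaks reached beyond a chromosome end. A region was a promoter when its midpoint lay within 2 kb of a start site, and otherwise intron or flank. Peaks per locus were compared for all 15743 of 21938 protein-coding genes with at least 1 peak, by exact permutation tests with Benjamini-Hochberg adjustment (Python 3.11.15, numpy 2.4.6, pandas 2.3.3). Groups whose values do not overlap are those at the smallest exact permutation p, 0.0286. The test was checked on simulated counts. Detection of changes was scored there only for genes with more peaks per library on average than any member. Sequences were read with pysam 0.24.0 from GRCm38.p6. Promoter sequences of *Cdh1*, *Cdh2*, *Cdh3*, *Cdh4* and *Cdh11* were not used here.

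The genes named were the 6 members, with the regions at their promoters, those called in all 8 libraries, in all 4 libraries of 1 side and 0 of the other or in both libraries of 1 group alone, and the highest-scored of each locus. Genes of the junction and cadherin lists were to be named where their groups did not overlap, so the catenin genes and the keratin and *Epcam* promoters were named outside that rule, as were the further *Cdh1* and *Cdh3* regions. Members and lists were chosen with earlier results of these data known. The alternatives were an equal number of highest-scored peaks per list, peaks at or above the pooled median score, peaks per 10000, no flank or a 50 kb flank, a stricter overlap, merged regions in place of peaks, other scales of the percentile, a filter of 8 peaks per gene, permutation within replicate numbers and leaving out each library.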

Additional observations from a re-analysis of the deposited data

How the results depend on the processing

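Of 238 alternative values for 16 results, 10 changed sign, 4 came to pass the test and 7 no longer passed it. The results of *Cdh4* were among the 16 and could not change, since that locus held 0 peaks throughout. A result of 0, such as the TGF-β difference at *Cdh1*, could not be counted as a change of sign. Differences of *Cdh6* and *Cdh11* became 0 with equal list length, with peaks at or above the median score and without TGF-β-treated EpRas replicate 1, as did that of *Cdh11* without the flank and both differences of *Cdh3* with peaks at or above the median score. For *Cdh1*, EpRas minus EpH4 (-2 peaks) passed the exact permutation test at p = 0.0286 with equal list length (-2), per 10000 peaks (-1.62) and with a 50 kb flank (-2.25), but not with peaks at or above the median score (-1.25, exact permutation p = 0.286). Leaving out 1 library gave -2.42 to -1.42, and the test was passed without TGF-β-treated EpH4 replicate 2. For *Cdh2* the difference of 1.75 no longer passed with equal list length (0.5, exact permutation p = 0.429) or with peaks at or above the median score (0.25, p = 1). Per 10000 peaks it was 0.952 (exact permutation p = 0.0286), a p that the EpH4 counts of 0 fixed in advance. It was 1.67 to 2.00 with 1 library left out, and the exact permutation p was 0.0571 without any 1 of the 4 EpH4 libraries and 0.0286 without any 1 of the 4 EpRas libraries. The lines stayed apart in all of these cases, with EpH4 counts of 0. The higher p came from another assignment that tied with the observed difference, and not from an overlap. The count of 3 regions called on 1 side of the lines became 0 with peaks at or above the median score.

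Directions that had not passed a test turned as follows. The TGF-β difference of 0 at *Cdh1* ran from -0.917 to 0.75 over the alternatives. The TGF-β difference at *Cdh3* (0.25) was -0.00726 per 10000 peaks and -0.167 to 0.833 with 1 library left out, and that at *Cdh2* (0.25) was -0.0833 to 0.667 with 1 library left out. The percentile difference of the *Cdh3* region called in all 8 libraries ranged with 1 library left out from -0.82 to 0.21 for the lines and from -0.83 to 0.20 for TGF-β, and among shared regions it was -1.71 and -1.07. The causes were not tested. Equal lists remove differences in list length by construction. Per-10000 values only divide by the list length, and with them the share of genes apart with EpRas lower went from 0.553% to 5.51%.

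Deviations of same-numbered libraries correlated between -0.0545 and 0.00216, but replicate 1 had the higher median score in every group. Pairing was not excluded. With the replicate block, permuting labels within each number, the *Cdh2* line difference was 1.75 with an exact p = 0.0556, the smallest that 36 assignments allow. No result could pass 0.05 in that fit.

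With at least 8 peaks per gene, 9409 genes were tested, and 5.08% were apart with EpRas higher and 0.627% with EpRas lower, 0.468% with TGF-β higher and 0.0744% lower. At equal list length, TGF-β-higher genes went from 89.9% to 41.6% of those apart by treatment, and per 10000 peaks EpRas-higher genes were 41.7% of those apart by line. The requirement that a peak or a region be covered to 50% was applied as 50% of the region covered by the peak, since every peak lies wholly inside its merged region. Without read counts, calls near the authors' limit cannot be graded.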

Other observations

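In *Cdh1* intron 2, the region called in all 4 EpH4 and 0 EpRas libraries lay 3.61 kb from the region with the opposite calls. The following counts were chosen after that pair had been seen and carry no test. Of the 280 regions of the genome called in all 4 EpH4 and 0 EpRas libraries, 1 had a region of the opposite kind within that distance, and it was the *Cdh1* region itself. Of 21938 protein-coding genes, 279 held a region of the first kind within their span and flanks, 757 a region of the second kind, and 12 (0.0547%) held both. With *Cdh1*, 1 other gene held at least 2 of the first and 1 of the second kind: *Gm20388*, which also spans a far longer stretch of chromosome 8.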
